A study of Mus musculus with 9 samples.

Results

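The genes described here were 9 members of the whey acidic protein (WAP) family of the mouse, taken by name: Wfdc2, Wfdc6a, Wfdc8, Wfdc9, Wfdc10, Wfdc13, Wfdc15a, Wfdc15b and Wfdc16. All of them were found in the UMI matrix, where they made up 9 of 32195 gene rows. The data were single-cell RNA-seq of epididymal cells from wild-type C57BL/6 mice (C57BL/6J in the study's methods) without treatment, collected as 1 pool of 5 mice at 42 days of age (P42) and as 2 pools from 10 mice at 56 days of age (P56 replicates 1 and 2). The epididymides of each pool were cut into caput, corpus and cauda, so that there were 9 libraries and the 3 segments of a pool came from the same mice. Because mice were pooled, no p-value below measures the spread between mice. The segment tests took their spread from the 3 pools. The cell type tests took the 9 libraries as blocks although these came from 3 pools, so they do not stand for 9 separate pools of mice. P42 was represented by 1 library per segment, and the age tests took their spread from the pairs of P56 libraries.

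WAP domain proteins are small secreted proteins whose core is a compact fold held together by disulfide bonds between paired cysteines. The family is named after a protein of rodent milk whey, and its better studied members inhibit serine proteases or act on bacteria. In the epididymis, a long duct in which sperm mature and are stored, the principal cells of the epithelium secrete most of the luminal proteins, and many WAP genes are known for their activity there. Wfdc15b encodes a protein with antibacterial activity, Wfdc2 is made by many secretory epithelia, and Wfdc8 combines WAP domains with a Kunitz domain, another inhibitor fold.

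The 9 genes lay together on chromosome 2 of GRCm38, within 488.843 kb of the GENCODE annotation. The span held 28 protein-coding genes, of which 19 were not described here as members and 4 of those were other WAP genes. Wfdc15a (chr2:164198863-164200130) and Wfdc15b (chr2:164214454-164221660) stood at the left end, both on the minus strand. Wfdc2 (chr2:164562413-164568510, plus strand), Wfdc6a (chr2:164579519-164585447, minus), Wfdc8 (chr2:164596458-164613626, minus), Wfdc16 (chr2:164634707-164638796, minus), Wfdc9 (chr2:164649631-164656583, minus), Wfdc10 (chr2:164656046-164657368, plus) and Wfdc13 (chr2:164685107-164687706, plus) followed after a gap. Wfdc9 and Wfdc10 lay on opposite strands, and the 5′ ends of their annotated spans overlapped without shared exon bases. Wfdc8 shared 105 exon bases with Wfdc6b on the opposite strand, and the strand setting of the count step was not given in the sources used here, so reads there could not be assigned to a strand. Of the 31-base words in the transcripts of Wfdc6a, 52.1% also occurred in Wfdc6b, so the split of counts between these genes is uncertain.

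**Figure D1:**
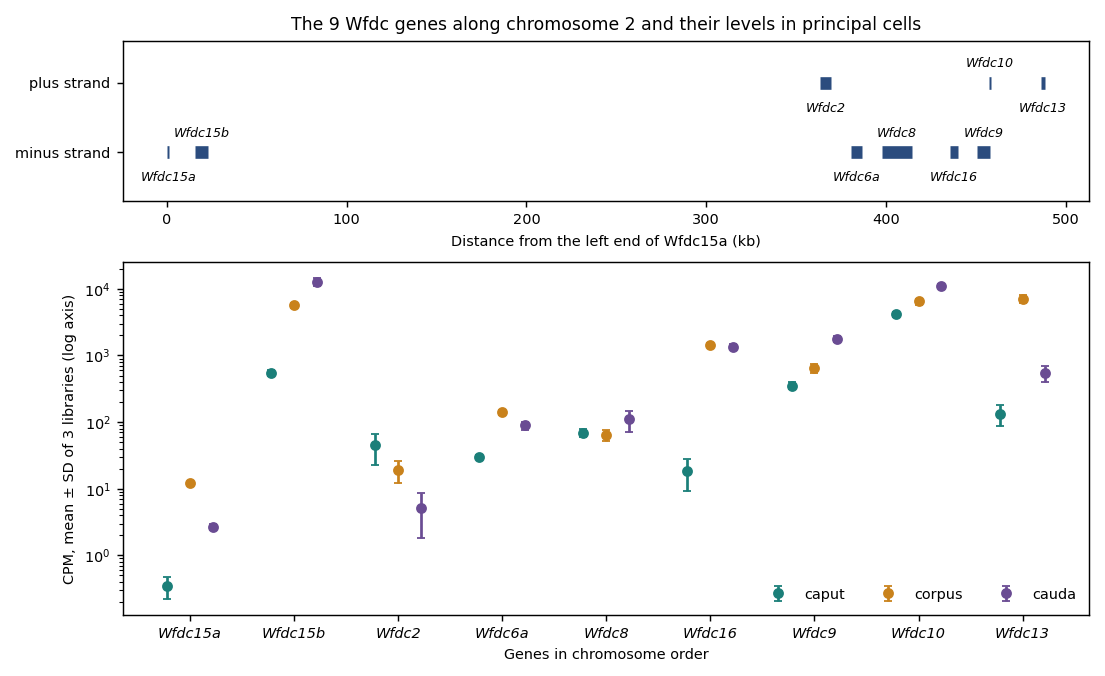
Upper panel, the 9 Wfdc genes drawn to scale by strand, with the distance from the left end of Wfdc15a in kb on the x axis. Lower panel, the level of each gene in principal cells (CPM, UMIs scaled to 1000000 per library, log axis), as mean ± SD of the 3 libraries of each segment, in the order of the chromosome; neighbours such as Wfdc15a and Wfdc15b, or Wfdc10 and Wfdc13, had their highest mean in different segments.

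Promoter sequences from RefSeq (GRCm38.p6) were found for 8 of the 9 genes; Wfdc13 had no entry. The 250 bases before the RefSeq start of 4 genes are shown 5′ to 3′ on the strand of the gene, because these genes carry the segment patterns described below: Wfdc15b and Wfdc16, whose levels differed most between caput and cauda, and the pair of Wfdc9 and Wfdc10, which are neighbours on opposite strands and whose levels followed each other over the libraries. The Wfdc15b window was chr2:164221664-164221913 (minus strand), the Wfdc16 window chr2:164638803-164639052 (minus), the Wfdc9 window chr2:164654967-164655216 (minus) and the Wfdc10 window chr2:164655796-164656045 (plus). The RefSeq start of Wfdc9 is not the GENCODE one, so that its window lies inside the GENCODE span given above. Capitals mark matches, on either strand, to TGTTCT, a core hexamer of androgen receptor binding sites, to AGGAAG, a core of ETS factor binding sites, and to TATAAA, the TATA box.
Wfdc15b: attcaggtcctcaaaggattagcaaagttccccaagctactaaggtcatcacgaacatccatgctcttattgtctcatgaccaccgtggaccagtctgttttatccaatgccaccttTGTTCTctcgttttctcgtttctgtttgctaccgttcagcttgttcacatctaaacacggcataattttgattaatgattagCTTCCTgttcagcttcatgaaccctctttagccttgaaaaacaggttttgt
Wfdc16: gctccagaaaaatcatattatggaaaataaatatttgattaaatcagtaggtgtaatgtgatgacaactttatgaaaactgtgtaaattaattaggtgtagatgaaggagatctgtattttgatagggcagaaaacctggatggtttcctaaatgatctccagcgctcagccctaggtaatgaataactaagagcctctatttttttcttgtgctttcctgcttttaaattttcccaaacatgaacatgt
Wfdc9: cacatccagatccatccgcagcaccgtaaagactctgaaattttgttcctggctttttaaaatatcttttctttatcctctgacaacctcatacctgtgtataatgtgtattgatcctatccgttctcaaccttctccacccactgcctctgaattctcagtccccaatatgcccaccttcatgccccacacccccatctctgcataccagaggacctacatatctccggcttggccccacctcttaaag
Wfdc10: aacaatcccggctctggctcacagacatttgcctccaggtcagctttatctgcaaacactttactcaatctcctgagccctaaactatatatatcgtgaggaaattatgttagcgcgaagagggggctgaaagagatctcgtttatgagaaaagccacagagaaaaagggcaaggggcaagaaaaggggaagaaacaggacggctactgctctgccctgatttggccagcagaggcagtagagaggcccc
Wfdc15b held TGTTCT at 133 bases and the reverse complement of AGGAAG at 51 bases before the start, and these matches did not overlap. The windows of Wfdc16, Wfdc9 and Wfdc10 held none of the 3 motifs, which says only that these letters were absent there. TGTTCT was found in 1 of the 8 member windows and in 16.1% of 32851 windows of the same length over all genes, AGGAAG in 4 member windows (Wfdc2, Wfdc8, Wfdc15a and Wfdc15b) and 29.5% of all windows, and TATAAA in 1 (Wfdc8) and 12.4%. These matches are a description of the letters and not evidence of binding.

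Of 44869 barcodes, 42087 passed the limits on genes, UMIs and mitochondrial UMIs, and cells were assigned to types by marker genes that included none of the 9 genes. The gates gave 17727 principal, 1795 basal and 4269 clear/narrow cells, and 3394 cells that met several gates were left out, as were 7323 cells (17.4%) in no gate, with no separate doublet call. Of the latter, 7096 held more marker UMIs of another type than principal cells were allowed, without passing the gate of that type. Libraries held 23114756 to 50655384 UMIs. The P42 cauda library stood apart: it held 68 principal cells against 826 to 3036 in the other libraries, 1790 of its cells met several gates, and markers of myoid cells/fibroblasts took a median of 2.604% of its UMIs per cell against 0.0127% to 0.180% elsewhere. Libraries shared 2 to 35 barcodes in each of 36 pairs. In principal cells, markers of principal cells took a median of 0.952% of UMIs against 0.477% in basal, 0.519% in clear/narrow and 0.550% in halo/T cells, and the median for basal markers was 0 in principal cells.

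Principal cells gave the main comparison, the levels of the 9 genes along the duct. UMIs were summed over the principal cells of each library and are given after scaling each sum to 1000000 UMIs (CPM), while log2 fold changes and tests come from edgeR after TMM scaling. A UMI count is not divided by transcript length, so each gene is compared with itself across segments. Where levels of segments are said to overlap or not, CPM values without TMM scaling are meant. Calls required an adjusted p under 0.05 (Benjamini-Hochberg) together with a difference of 1 or more on the log2 scale. By the test over the 3 segments, 8 of the 9 genes were called, all but Wfdc8, where 40.9% of the 16146 genes tested were called. The highest segment of the called members was the caput for 1, the corpus for 3 and the cauda for 4, while among all 6607 genes called it was the caput for 2895, the corpus for 2099 and the cauda for 1613. The cauda count includes Wfdc16, whose corpus and cauda levels were not told apart. The mean of Wfdc16 was higher in the cauda after TMM scaling and in the corpus by CPM. The corpus count includes Wfdc6a, whose difference between corpus and cauda did not pass.

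Between corpus and caput, 6 members were called, 5 higher in the corpus (15.4% of all genes were called higher) and 1 lower (15% of all genes), beside 30.4% called in either direction. Between cauda and corpus, 5 members were called, 2 higher in the cauda (6.79% of all genes) and 3 lower (9.71%), beside 16.5% in either direction. Between cauda and caput, 8 members were called, 7 higher in the cauda (13.8%) and 1 lower (16.7%), beside 30.5%. The median log2 fold change of the members was 2.26 for corpus over caput, 0.01 for cauda over corpus and 2.19 for cauda over caput, where the medians of all genes tested were 0.02, −0.05 and −0.04. Without the P42 pool, which includes the library that stood apart, 5, 4 and 8 members were called in these comparisons. In that setting 4907 genes were called between corpus and caput and 2892 between cauda and corpus, in place of 4905 and 2664.

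**Figure D2:**
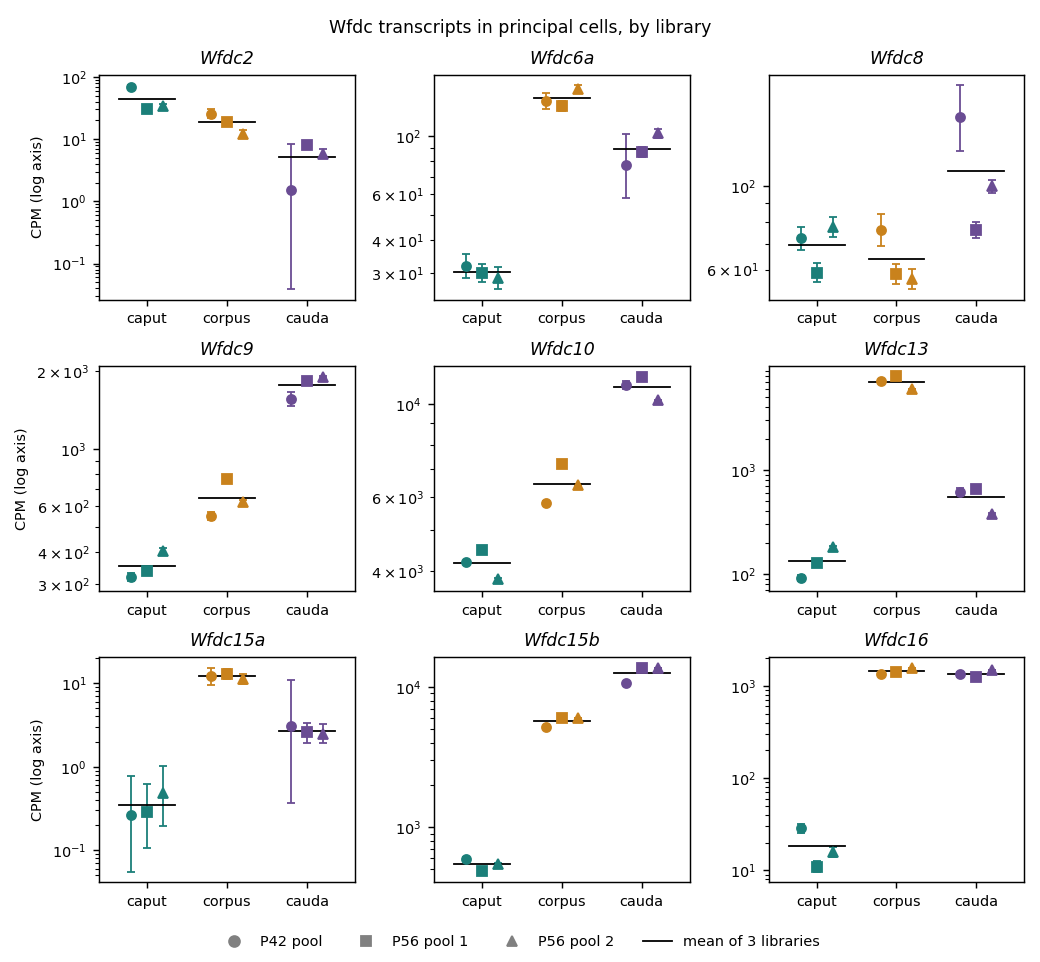
CPM of the 9 Wfdc genes in principal cells (log axis) by segment, 1 panel per gene. Symbols stand for the P42 pool and the 2 P56 pools, error bars for 95% Poisson intervals, which cover counting error only, and black lines for the mean of 3 libraries; Wfdc15b and Wfdc16 separated the caput from the corpus and cauda in every pool, and Wfdc13 peaked in the corpus.

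Wfdc15b, the gene of the antibacterial protein, rose at each step along the duct. In the caput its level was 595, 488 and 543 CPM in the P42 pool and P56 replicates 1 and 2. The corpus values were 5166, 5978 and 5999.7 CPM and the cauda values 10688, 13726 and 13617.5 CPM, in the same order of pools. The 3 segments did not overlap. The corpus was higher than the caput by a log2 fold change of 3.44 ± 0.24 (SE; edgeR, adjusted p = 2.82e-07), and the cauda was higher than the corpus by 1.25 ± 0.22 (edgeR, adjusted p = 0.00157). Without P56 replicate 1, the second step was 1.15 with an adjusted p of 0.0735 by edgeR and was not called.

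Wfdc9 and Wfdc10, the neighbours on opposite strands, also had their highest level in the cauda. Wfdc9 was at 320.3, 338 and 402 CPM in the caput, at 551, 765 and 622 CPM in the corpus and at 1560.4, 1838 and 1893 CPM in the cauda. Its larger step was between corpus and cauda, with a log2 fold change of 1.55 ± 0.18 (edgeR, adjusted p = 8.29e-05), against 0.92 ± 0.18 between caput and corpus (edgeR, adjusted p = 0.00122), which was under the limit of 1. The segments did not overlap for either gene. Wfdc10 was at 4197, 4499 and 3826 CPM in the caput, at 5798, 7182 and 6408 CPM in the corpus and at 11105, 11601 and 10205.5 CPM in the cauda. Each of its steps was under the limit, 0.69 ± 0.19 and 0.86 ± 0.19 (edgeR, adjusted p = 0.0116 and 0.00662), and cauda against caput was called at 1.55 ± 0.20 (edgeR, adjusted p = 4.82e-05).

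Wfdc16 was near its lowest level in the caput and as high in the corpus as in the cauda. Its caput level was 28.8, 11.0 and 15.9 CPM, its corpus level 1337, 1422 and 1560.25 CPM and its cauda level 1335, 1248 and 1483 CPM. Corpus and cauda overlapped, and the caput lay far under both. The corpus exceeded the caput by a log2 fold change of 6.40 ± 0.36 (edgeR, adjusted p = 4.1e-08), an 84.5-fold difference. Between cauda and corpus the fitted difference was 0.01 ± 0.28 (edgeR, adjusted p = 0.99), and neither segment can be placed above the other.

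Wfdc13, Wfdc15a and Wfdc6a had their highest level in the corpus. Wfdc13 was at 91.5, 127 and 180.3 CPM in the caput, at 7227, 7925 and 6001 CPM in the corpus and at 613, 649 and 374 CPM in the cauda. No segment overlapped another. The corpus exceeded the caput by a log2 fold change of 5.80 ± 0.32 (edgeR, adjusted p = 3.32e-08), and the cauda fell by 3.61 ± 0.29 on the log2 scale from the corpus (edgeR, adjusted p = 5.13e-06), while still exceeding the caput by 2.19 ± 0.27.

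Wfdc15a, the left neighbour of Wfdc15b, was detected with few UMIs. It was at 0.267, 0.287 and 0.489 CPM in the caput, from 3, 6 and 7 UMIs, and at 12.1, 12.8 and 11.3 CPM in the corpus. In the cauda it was at 3.04, 2.57 and 2.49 CPM, and the P42 value rested on 2 UMIs. The segments did not overlap in their values, although the 95% counting interval of that P42 value, 0.369 to 11.0 CPM, reached those of the other segments. Corpus over caput was 5.16 ± 0.26 (log2; edgeR, adjusted p = 1.72e-08), and from corpus to cauda it fell by 2.10 ± 0.21 (edgeR, adjusted p = 2.6e-05).

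Wfdc6a was at 31.8, 30.0 and 28.6 CPM in the caput, at 137, 131 and 151 CPM in the corpus and at 77.6, 87.0 and 103 CPM in the cauda. The corpus exceeded the caput by a log2 fold change of 2.26 ± 0.18 (edgeR, adjusted p = 1e-06). The CPM values of corpus and cauda did not overlap, but their difference after TMM scaling, −0.52 ± 0.18, did not pass (edgeR, adjusted p = 0.056). After TMM scaling the mean was 140.6 ± 31.3 CPM (SD) in the corpus and 97.9 ± 32.5 CPM in the cauda. The order of these neighbouring levels was therefore not separated by the test.

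Wfdc2, the gene of a protein secreted by many epithelia, was the member with its highest level in the caput. It was at 69.8, 30.4 and 33.5 CPM in the caput, at 25.7, 19.0 and 12.2 CPM in the corpus and at 1.52, 8.10 and 5.84 CPM in the cauda. The segments did not overlap, and within caput and corpus the P42 pool was the highest. The P42 cauda value came from 1 UMI in 68 cells, with a 95% counting interval of 0.0385 to 8.48 CPM. The corpus was lower than the caput by a log2 fold change of −1.14 ± 0.24 (edgeR, adjusted p = 0.00226), and the cauda than the corpus by −1.08 ± 0.28 (edgeR, adjusted p = 0.0147).

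The calls of Wfdc2 between neighbouring segments each depended on single pools. Without the P42 pool its steps were −0.97 (edgeR, adjusted p = 0.000456) and −0.99 (edgeR, adjusted p = 0.00129), both just under the limit of 1. Without P56 replicate 1 the step from corpus to cauda was −1.36 (edgeR, adjusted p = 0.081), and without P56 replicate 2 it was −1.22 (edgeR, adjusted p = 0.0654). The difference of cauda from caput, −2.22 ± 0.28 (edgeR, adjusted p = 4.57e-05), did not turn on 1 pool.

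Wfdc8, which adds a Kunitz domain to its WAP domains, was the member not called between any segments. It was at 72.7, 58.9 and 77.9 CPM in the caput, at 76.5, 58.5 and 56.7 CPM in the corpus and at 152, 76.5 and 99.7 CPM in the cauda. The corpus and caput overlapped and differed by −0.07 ± 0.15 (log2; edgeR, adjusted p = 0.731). The cauda exceeded the corpus by 0.81 ± 0.16 (edgeR, adjusted p = 0.00263), under the limit of 1.

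Together the 9 genes took 0.511% to 0.558% of the UMIs of caput principal cells, 2.03% to 2.35% of those of the corpus and 2.55% to 2.92% of those of the cauda. Their mean share was 0.537% ± 0.0240 (SD, n = 3) for the caput, 2.15% ± 0.170 for the corpus and 2.75% ± 0.186 for the cauda. The makeup of this total shifted along the duct. Wfdc10 gave 74.9% to 80.6% of the members' UMIs in caput libraries, 28.5% to 30.8% in corpus libraries and 36.7% to 43.5% in cauda libraries. Wfdc13 gave 1.69% to 3.53%, 28.8% to 35.5% and 1.35% to 2.40%, and Wfdc15b gave 8.74% to 11.0%, 25.4% to 28.8% and 41.9% to 49.0%, in the same order. These are shares of counted molecules.

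**Figure D3:**
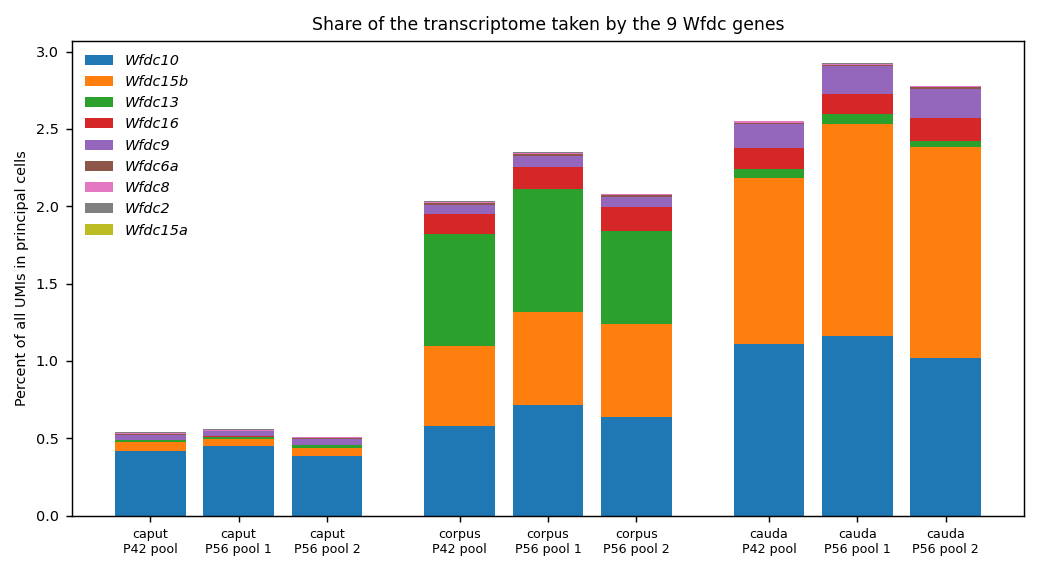
Percent of all UMIs of principal cells taken by the 9 Wfdc genes in each library, stacked by gene. The total was lowest in the 3 caput libraries (0.511% to 0.558%) and highest in the 3 cauda libraries (2.55% to 2.92%), with Wfdc13 (green) wide in the corpus and Wfdc15b (orange) widening from caput to cauda.

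The share of principal cells with a UMI followed the same order for Wfdc13, with 11.0% to 20.8% of cells in the caput libraries, 99.7% to 100% in those of the corpus and 47.1% to 67.7% in those of the cauda. In the P42 cauda, 32 of 68 cells held it (47.1%, exact 95% interval 34.8% to 59.6%). Halo/T cells, lymphocytes that should not make these proteins, held a UMI of Wfdc13 in 0% to 23.8% of cells in the caput and in 92% to 100% in the corpus. Median depths were 5326 to 9531 UMIs in principal and 2451 to 8627 UMIs in halo/T cells. Principal and halo/T shares of Wfdc13 thus overlapped in each of these segments, and such shares were not read as expression.

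After cells were thinned to 1000 UMIs, 2.76% to 7.48% of caput, 96.5% to 98.1% of corpus and 18.3% to 30.9% of cauda principal cells held Wfdc13, beside 0% to 5.41% and 71.2% to 88% of halo/T cells in caput and corpus. The thinned shares of corpus principal cells lay above those of corpus halo/T cells. The corpus libraries held only 80, 25 and 11 halo/T cells before thinning, and this difference was not tested. The 0 of 15 halo/T cells with Wfdc13 in the P42 caput allows a share of up to 21.8% by the upper exact 95% limit, for counting error only. Wfdc15a was held by at most 7.74% of principal cells in any library before thinning.

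The ages were compared in the principal cells of each segment, with the spread taken from the pairs of P56 libraries. The columns of the deposited table do not name the age, and the P42 libraries were matched to them by inference, from the missing replicate number and the number of cells. In the caput, 0 of the 9 genes were called by edgeR and 0 by DESeq2, where edgeR called 0.764% of the 17418 genes tested; 4 members had an unadjusted p under 0.05. In the corpus, 0 members were called by both tools, beside 1.5% of all genes, and 5 had an unadjusted p under 0.05. In the cauda, 1 member was called by edgeR and 0 by DESeq2, beside 4.71% of all genes in either direction and 3.92% higher. There 6 members had an unadjusted p under 0.05. The share of all genes under this unadjusted cut was not counted, so the member counts at it are not read as a result. DESeq2 called 145, 204 and 548 genes in caput, corpus and cauda. With a replicate block for the P56 pools the number of genes called rose from 133 to 360 in the caput and from 261 to 455 in the corpus. In the cauda it rose from 821 to 948. With this block 0, 0 and 1 members were called in caput, corpus and cauda.

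The member called was Wfdc15b, higher at P56 in the cauda by a log2 fold change of 1.04 ± 0.21 (edgeR, adjusted p = 0.0196). Its level was 10688 CPM in the P42 pool and 13726 and 13617.5 CPM at P56, so both P56 values lay above the P42 value. Most of the fitted difference came with the TMM scaling, which set the median of all genes to 0.45 in this comparison. With scaling factors of 1, which lower the median by 0.63, the difference was 0.36 (edgeR, adjusted p = 0.454). Wfdc9 and Wfdc6a were at 0.94 ± 0.19 and 0.97 ± 0.21 in the cauda (edgeR, adjusted p = 0.0201 and 0.0289), under the limit of 1, and at 0.26 and 0.29 with factors of 1 (edgeR, adjusted p = 0.625 and 0.613). Wfdc2 in the cauda, at 2.87 ± 1.22 from the 1 UMI of the P42 library, did not pass (edgeR, adjusted p = 0.23).

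In the caput, Wfdc2 and Wfdc16 were lower at P56 by −0.79 ± 0.24 and −0.77 ± 0.22 (log2; edgeR, adjusted p = 0.152 and 0.132) and did not pass. Wfdc2 was at 69.8 CPM in the P42 pool against 30.4 and 33.5 CPM, and Wfdc16 at 28.8 CPM against 11.0 and 15.9 CPM, so the P56 values of both genes lay under the P42 value. With scaling factors of 1 both passed, at −1.13 and −1.11 (edgeR, adjusted p = 0.0114 and 0.0163), in a setting that lowered the median of all genes by 0.34. Wfdc13 moved the other way in the caput, with 1.08 ± 0.37 (edgeR, adjusted p = 0.194), and did not pass.

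The fitted age difference of Wfdc16 was larger in the cauda (0.71) than in the caput (−0.77). In the cauda the P56 values of 1248 and 1483 CPM lay on both sides of the P42 value of 1335 CPM, and with factors of 1 the cauda difference was 0.03 (edgeR, adjusted p = 0.956). The difference between them, 1.49 ± 0.31, was called (edgeR, adjusted p = 0.0397), as were 2.78% of all genes, whose median difference was 0.47. It was 1.36 with size factors by relative log expression (edgeR, adjusted p = 0.0677) and 1.14 with factors of 1 (edgeR, adjusted p = 0.109), and was then not called. No other member was called for this change, and the P42 cauda with its 68 principal cells stood on 1 side of it; the part of that library in the result was not tested.

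**Figure D4:**
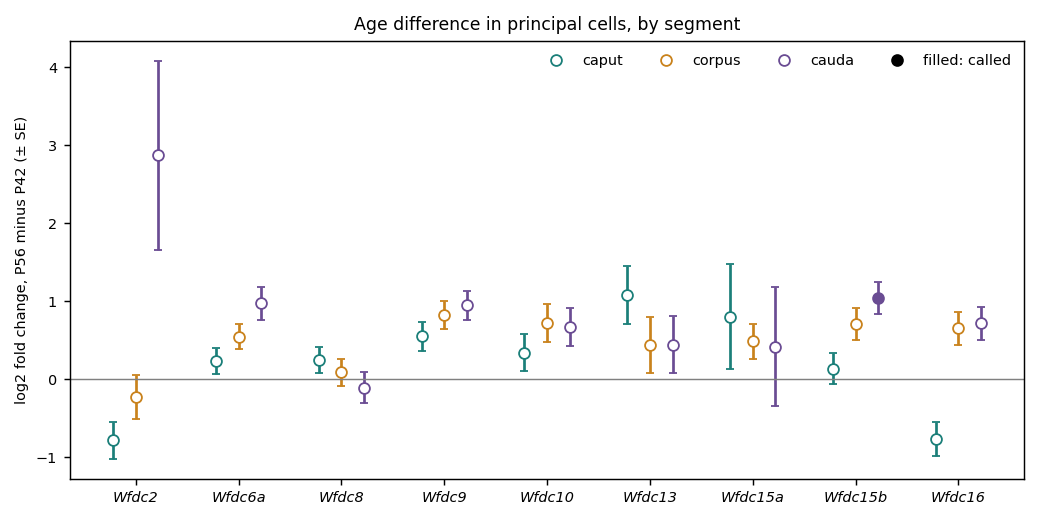
Log2 fold change of P56 over P42 in principal cells (y axis, ± SE) for each Wfdc gene and segment, from the edgeR fit with TMM scaling. Filled points are called (adjusted p under 0.05, difference of 1 or more); 1 of the 27 points, Wfdc15b in the cauda, is filled, and the wide bar of Wfdc2 in the cauda goes with its 1 UMI in the P42 cauda.

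Cell types were compared within libraries. Basal cells sit on the basement membrane under the principal cells, and clear/narrow cells acidify the lumen. RNA set free from principal cells can be captured with any other cell, so levels were also set against secreted products of principal cells, among them lipocalins, cystatins and defensins. Of 17 such reference genes, those at 50 CPM or more in the principal cells of a library were used: 16 in the caput, 7 or 8 in the corpus and only 3 or 4 in the cauda. Over the libraries, the median level of these reference genes was 33.3% of that in principal cells for basal and 38.5% for clear/narrow cells, and 81.7% for halo/T cells. A member at such a percentage in another cell type was therefore not told apart from free RNA.

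Between basal and principal cells over all libraries, 7 of the 9 genes were called, 6 lower in basal cells (12.3% of all genes were called lower) and 1, Wfdc2, higher (12%), beside 24.3% called in either direction. Between clear/narrow and principal cells, 8 were called, all lower (11.3% of all genes lower, 20.6% in either direction), and Wfdc2 was not called. The median log2 fold change of the members was −1.30 in basal and −1.81 in clear/narrow cells, where the medians of all genes were −0.08 and −0.06. Without the library as a block, 3 and 5 members were called in these comparisons, and 1856 and 1601 genes in place of 3077 and 2608. With scaling factors of 1, 5 members were called in basal cells, and with a stricter gate 9, beside 3480 and 3123 genes. With factors of 1, Wfdc15b (−0.79) was under the limit and Wfdc16 (−0.68; edgeR, adjusted p = 0.0898) did not pass.

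In the basal cells of single libraries, Wfdc6a was above every reference gene in none of the 9 libraries and Wfdc2 in each of them. Wfdc10 in basal cells stood at 49.9% to 58.0% of its principal level within the caput, 48.0% to 50.3% within the corpus and 24.6% to 48.8% within the cauda, and Wfdc13 at 27.0% to 41.6%, 28.0% to 44.8% and 28.2% to 37.4%. The medians of the reference genes in basal cells were 20.9% to 33.3%, 30.6% to 53.5% and 12.6% to 42.7%. The highest single reference gene of a library lay between 36.1% and 73.9% for caput, 64.4% and 85.3% for corpus, and 46.9% and 59.0% for cauda libraries. Wfdc10 was above all of them in 2 of 3 caput, 0 of 3 corpus and 2 of 3 cauda libraries, and Wfdc13 in 1 caput library and in 0 of the others. Wfdc9 was above all in 2 of 3 caput libraries, and Wfdc2, Wfdc8, Wfdc15b and Wfdc16 in 3 of 3. Wfdc15a, at 0% to 311% of its principal level in the caput, was above all in 1 of 3 caput, 1 of 3 corpus and 2 of 3 cauda libraries. Wfdc8 was also above all in 2 of 3 corpus and 2 of 3 cauda libraries. In the caput Wfdc8 was at 99.2, 70.3 and 63.9 CPM in basal cells, 82.1% to 137% of its principal level. Its basal difference changed from caput to cauda by −1.01 ± 0.24 (log2; edgeR, adjusted p = 0.00199). The change was −0.52 without the P42 pool and −0.82 with cells thinned to 1000 UMIs (edgeR, adjusted p = 0.0631 and 0.205), and was then not called. With size factors by relative log expression (−0.999) and with a stricter gate (−0.988) it was just under the limit of 1.

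Wfdc2 stood furthest above the reference genes in the cauda. In basal cells it was at 39.4, 35.1 and 39.6 CPM in the caput, at 58.5, 37.9 and 30.5 CPM in the corpus and at 32.8, 94.1 and 83.3 CPM in the cauda. As a percentage of principal cells of the same library this came to 56.4%, 116% and 118% for caput, 228%, 200% and 250% for corpus, and 2154%, 1162% and 1425% for cauda. The basal level thus did not follow the fall in principal cells, and in each of the 9 libraries it was above every reference gene of that library. The values rested on 36 to 83 UMIs per caput library, 13 to 45 per corpus library and 5, 267 and 180 for the cauda, the 5 being those of the P42 cauda with its 24 basal cells. The 2154% was set against the P42 cauda principal cells, whose level rested on the single UMI given above.

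Tested within segments, Wfdc2 in basal against principal cells was −0.81 ± 0.18 in the caput (log2; edgeR, adjusted p = 0.000261), under the limit, 0.84 ± 0.28 in the corpus (edgeR, adjusted p = 0.021), also under it, and 3.19 ± 0.19 in the cauda (edgeR, adjusted p = 2.43e-16), a 9.11-fold higher level. The call over all libraries, 1.004 ± 0.40 (edgeR, adjusted p = 0.0368), therefore averaged 3 different values. The caput value depended on the scaling, which set the median of all genes 0.60 lower than factors of 1 did: with factors of 1 it was −0.20 (edgeR, adjusted p = 0.40), and without the P42 pool −0.39 (edgeR, adjusted p = 0.11), while with cells thinned to 1000 UMIs it was called at −1.22 (edgeR, adjusted p = 0.00236). The corpus value was called with factors of 1, at 1.23 (edgeR, adjusted p = 0.00142). The call over all libraries was lost without P56 replicate 1 (0.79; edgeR, adjusted p = 0.173), without P56 replicate 2 (0.81; edgeR, adjusted p = 0.162) and without the block (0.81; edgeR, adjusted p = 0.128). It was also lost with cells thinned to 1000 UMIs (0.95; edgeR, adjusted p = 0.0557), with no filter on low counts (0.898) and with limits on detected genes only (0.997), the last 2 being just under the limit of 1. Within segments, edgeR called 5, 6 and 8 members between basal and principal cells in caput, corpus and cauda, beside 23.8%, 20.8% and 22.8% of all genes. Of these, 1 was higher (11.5% of all genes) and 4 lower (12.2%) in the caput, 6 lower (9.48%) in the corpus, and 1 higher (11.7%) and 7 lower (11.1%) in the cauda. These tests within segments were chosen after seeing the data.

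The basal difference of Wfdc2 was larger in the cauda than in the caput by 3.99 ± 0.26 (edgeR, adjusted p = 8.77e-15), where 9.61% of all genes and 4 members were called. It was larger in the corpus than in the caput by 1.64 ± 0.34 (edgeR, adjusted p = 0.000713), where 7.72% of all genes and 3 members were called. Without the P42 pool the latter was 1.07 with an adjusted p of 0.0965 by edgeR and was not called. In clear/narrow cells Wfdc2 was at 15.3, 9.83 and 16.8 CPM in the cauda, 121% to 1006% of principal cells, and did not pass within that segment (0.62 ± 0.27; edgeR, adjusted p = 0.0605). The 1006% was set against the single UMI of the P42 cauda principal cells. Clear/narrow cells held Wfdc2 above every reference gene in 2 of 3 caput, 1 of 3 corpus and 3 of 3 cauda libraries. In the cauda so did myoid cells/fibroblasts in 2 of 3 (110% to 185%), macrophages/monocytes in 1 of 3, endothelial cells in 1 of 1 and halo/T cells in 0 of 1.

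Ciliated cells, gated in the caput alone with 67, 20 and 48 cells, held Wfdc2 at 80.7, 90.8 and 115 CPM, 116% to 342% of principal cells, above every reference gene of the same library in 3 of 3 libraries. This is a description of 13 to 38 UMIs per library.

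Wfdc16 and Wfdc15b had a higher CPM in basal than in principal cells in the caput, and a lower one in corpus and cauda, in every pool. Wfdc16 in basal cells was at 94.0, 39.0 and 40.6 CPM in the caput, at 365, 501 and 631 CPM in the corpus and at 243, 476 and 597 CPM in the cauda. In the caput this was 327%, 356% and 256% of the principal level, above each reference gene, while in corpus and cauda it was 27.3% to 40.4% and 18.2% to 40.2%, within their range. The basal difference was 1.04 ± 0.20 in the caput (log2; edgeR, adjusted p = 3.47e-05), −1.98 ± 0.16 in the corpus (edgeR, adjusted p = 1.59e-12) and −2.14 ± 0.17 in the cauda (edgeR, adjusted p = 2.32e-13). The caput value was 0.89 without the P42 pool and 0.93 with a stricter gate, under the limit of 1, and 0.76 with cells thinned to 1000 UMIs (edgeR, adjusted p = 0.0655). Caput endothelial cells, at 76.0% to 179%, and clear/narrow cells, at 67.5% to 108%, also held Wfdc16 above every reference gene in 3 of 3 libraries. Caput macrophages/monocytes held it above them in 2 of 3 libraries (88.7% to 172%). The same was true of myoid/fibroblast, halo/T, sperm and ciliated cells in 1 caput library each. The caput principal levels of Wfdc16 were under the 50 CPM asked of the reference genes. The endothelial values came from 208 cells of the P42 pool and from only 35 and 34 cells of P56 replicates 1 and 2.

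The change of the Wfdc16 basal difference from the caput was −3.02 ± 0.26 to the corpus (edgeR, adjusted p = 2.36e-11) and −3.18 ± 0.26 to the cauda (edgeR, adjusted p = 4.05e-12). Wfdc15b in caput basal cells was at 840.2, 807 and 762 CPM, 140% to 165% of principal cells, and at 33.5% to 45.6% and 16.8% to 45.4% of them in corpus and cauda. Its fitted basal difference in the caput was −0.04 ± 0.18 (edgeR, adjusted p = 0.873), since TMM scaling set the median of all genes 0.60 lower than factors of 1 did, and it was 0.57 with factors of 1. Its change from the caput was −1.66 ± 0.26 to the corpus (edgeR, adjusted p = 9.23e-06) and −2.17 ± 0.26 to the cauda (edgeR, adjusted p = 5.57e-08).

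**Figure D5:**
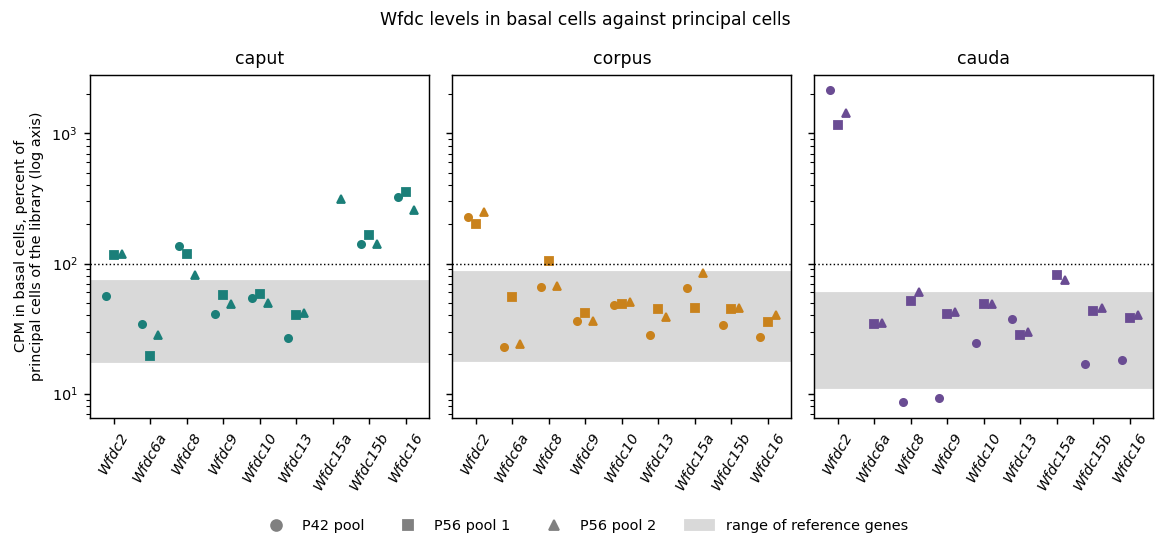
CPM in basal cells as a percentage of the CPM in principal cells of the same library (log axis) for each Wfdc gene, by segment. Symbols stand for pools, the grey band for the range of the reference genes over the libraries of a segment and the dotted line for 100%; levels of 0 are not drawn (Wfdc15a in 2 caput libraries, Wfdc15a and Wfdc6a in the P42 cauda). Wfdc2 climbs above the band from caput to cauda, and Wfdc15b and Wfdc16 lie above it in the caput alone.

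In clear/narrow cells against principal cells, 5, 8 and 7 members were called lower within caput, corpus and cauda, beside 9.18%, 10.1% and 12.1% of all genes called lower and 18.1%, 23% and 23.8% called in either direction. Wfdc16 in clear/narrow cells was at 19.4, 10.9 and 17.1 CPM in the caput, close to the 28.8, 11.0 and 15.9 CPM of principal cells, at 410, 507 and 580 CPM in the corpus and at 260, 400 and 484 CPM in the cauda. Its difference changed from the caput by −1.18 ± 0.27 to the corpus (edgeR, adjusted p = 0.00117), where 9.82% of all genes and 1 member were called. The change to the cauda was −1.65 ± 0.27 (edgeR, adjusted p = 1.42e-05), where 11.4% of all genes and 4 members were called. With cells thinned to 1000 UMIs these changes were −0.57 and −1.06 and did not pass.

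Sperm, gated by protamines and other late germ cell transcripts, held Wfdc15a above principal cells in the caput. It was at 79.9 CPM in P56 replicate 1, from 13 UMIs in 25 cells, and at 59.6 CPM in P56 replicate 2, from 60 UMIs in 145 cells, while caput principal cells held at most 0.489 CPM. A UMI was found in 6 of the 25 and in 27 of the 145 cells. Wfdc15a was also above every reference gene in caput macrophages/monocytes of both P56 replicates, from 2 UMIs each, and in basal cells of 1 of 3 caput libraries. The same held for ciliated cells of P56 replicate 2, at 18.1 CPM from 6 UMIs, while those of P42 and P56 replicate 1 held 0 UMIs. The reference genes are products of principal cells and do not measure free RNA from sperm. Whether these other cells express Wfdc15a was not tested. In corpus sperm it was at 13.7, 5.06 and 29.0 CPM, from 3, 1 and 7 UMIs, beside 11.3 to 12.8 CPM in corpus principal cells. The highest reference gene in caput sperm reached 109% of its principal level. The P42 caput held 6 sperm, under the minimum of 10 cells. When all cells of each library were summed without a gate, the difference of cauda from caput in Wfdc15a was 0.18 (log2; edgeR, adjusted p = 0.797) in place of 3.06.

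Of 14 other WAP genes, 10 could be tested between segments in principal cells and 9 were called by the test over the 3 segments, all but Slpi, the gene of a leukocyte protease inhibitor, where 40.9% of all genes were called. Between corpus and caput, 4 were higher and 2 lower in the corpus (15.4% and 15% of all genes). Between cauda and corpus, 4 were higher and 3 lower in the cauda (6.79% and 9.71%), and between cauda and caput, 4 were higher and 2 lower in the cauda (13.8% and 16.7%). Eppin, a Kunitz and WAP protein on the sperm surface, was at 413, 375 and 315 CPM in the caput, 561, 578 and 513 CPM in the corpus and 155, 145 and 126 CPM in the cauda, and fell by 1.86 on the log2 scale from corpus to cauda. The neighbour Wfdc6b was at 29.1, 23.6 and 29.7, then 68.5, 65.1 and 82.1, then 408, 230.3 and 281 CPM, so that its highest level was in the cauda.

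Wfdc18 had its highest level in the caput, at 51.4, 13.3 and 14.8 CPM, and was lower in the corpus by −5.43 (log2). Wfdc3 was lower in the corpus than in the caput by −2.78 and higher in the cauda than in the corpus by 3.43. Wfdc11 fell by 1.06 from corpus to cauda, Wfdc1 rose by 1.37 over the same step, and Wfdc17 rose by 1.51 from caput to corpus. Wap, the milk protein gene, and Wfdc12 were near the floor in the caput, with 1 and 2 UMIs over the 3 caput sums, against 14, 56 and 37 UMIs of Wap and 4, 24 and 36 UMIs of Wfdc12 in the corpus. Wfdc18 in the caput and Wfdc17 in the cauda were lower at P56, by −1.53 and −2.60 (edgeR, adjusted p = 0.0327 and 0.0199). The Wfdc17 value set 48.7 CPM, from 32 UMIs in the 68 principal cells of the P42 cauda, against 4.12 and 5.88 CPM at P56, and that library stood apart as described above. Macrophages/monocytes of the cauda libraries held Wfdc17 at 325 to 1996 CPM; the part of other cells in this result was not tested.

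Serine proteases are the enzymes that WAP inhibitors are known to bind. Of 12 protease genes chosen as such, 9 could be tested and 7 were called over the 3 segments, where 40.9% of all genes were called. Their highest level was in the caput for 1, the corpus for 3 and the cauda for 3, against 2895, 2099 and 1613 of the 6607 genes called. Plau (urokinase) was higher in the corpus than in the caput by 4.04 (log2), Tmprss2 by 2.69, Htra1 by 1.36 and Prss8 (prostasin) by 1.12, and Plat (tissue plasminogen activator) was lower by −2.09. Klk1, a kallikrein, rested on 3 UMIs over the caput sums, 17 in the corpus and 22 in the cauda. Prss22 had 0 UMIs in the 3 corpus sums and 0, 31 and 47 in the cauda. St14 (matriptase) and Hpn (hepsin) were not called, and the 3 proteases of neutrophil granules, Elane, Prtn3 and Ctsg, had too few UMIs to be tested. Htra1 was lower at P56 in the caput by −1.29 (edgeR, adjusted p = 0.0281).

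The genes most like each member over the 9 sums of principal cells were named by Pearson's r of log2 CPM among 2118 genes, as a description without a test, since the 9 libraries share 3 segments and 3 pools. Wfdc15b was closest to Acbd7 and Spinkl (r = 0.998 and 0.997), Wfdc16 to Prlr and Tapbp (0.997 and 0.997) and Wfdc13 to Glb1l3 and Defb26 (0.994 and 0.993). Wfdc15a was closest to Defb37 and Bsph2 (0.992 and 0.991), Wfdc6a to Sat1 and Pwwp3b (0.993 and 0.993), Wfdc10 to Gng5 and Klf9 (0.987 and 0.985) and Wfdc9 to Sod2 and Rida (0.985 and 0.983). Wfdc2 was closest to Banf1 and Vdac2 (0.977 and 0.968) and Wfdc8 to Add3 and S100a8 (0.919 and 0.902). Among the members themselves, r was 0.979 for Wfdc9 and Wfdc10, 0.972 for Wfdc13 and Wfdc15a, 0.960 for Wfdc15b and Wfdc16, and −0.819 for Wfdc2 and Wfdc8.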

How the data were processed

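ScRNA-seq was performed by the authors on pooled caput, corpus and cauda tissue with the GEXSCOPE system, in which unique molecular identifiers (UMIs) mark molecules. The authors trimmed reads with fastp, extracted barcodes with umi_tools, mapped reads to GRCm38.p6 with STAR 2.7.3a and assigned them to exons with featureCounts. They deposited UMI counts per gene and barcode without normalization (32195 genes, 307987941 UMIs). Columns numbered 1 and 2 match the P56 titles; those numbered 0 were taken as the P42 pool by inference, since its titles carry no replicate number and the cells they keep come within 1 of the number the study gives for that age.

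Cells with 300 to 4000 genes, at most 20000 UMIs and under 50% mitochondrial UMIs were kept. A cell was assigned to a type with at least 3 of its markers at a set percentage of UMIs. Principal cells were those in no other gate with at least 0.3% of UMIs in 12 epithelial markers. Their markers of every other type also had to stay under 50% of the limit of that type. The 5 globin genes were left out of the sums. Counts were summed per library and type (at least 10 cells) and tested with edgeR 4.0.16 in R 4.3.3 (quasi-likelihood test, filterByExpr, TMM, Benjamini-Hochberg adjustment over all genes tested). A prior count of 2 was used for the log2 CPM behind the correlations and the highest segment, and not in the tests. Segments were compared with the pool as a block, cell types with the library as a block, and ages with a mean per segment and age. A pool gave all 3 of its segments from the same mice. Deviations from the segment means correlated between libraries of 1 pool by −0.0180 to 0.331 (median 0.121; 6 of 9 pairs over 0.1) and between different pools by −0.284 to 0.135 (1 of 18 over 0.1). The deviations of a segment cancel over its 3 pools, which by itself lowers the correlation between different pools. The P42 pool also differs in age, so shared mice and age cannot be told apart in these values. Scripts were tested on simulated counts with known changes.

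The alternatives were DESeq2 1.42.0, size factors by relative log expression, no filter on low counts, limits on detected genes only, a stricter gate, all cells without a gate, another choice of the block, cells thinned to 1000 UMIs and each pool left out; scaling factors of 1 and the cell type tests within segments were chosen after seeing the data. The members and gene lists were chosen with earlier results of these data known. Genes named are the 9 members, the other WAP genes and serine proteases called between segments, and the 2 genes (mean of at least 50 CPM) most correlated with each member; members of these lists that were not called, and their changes with age and cell type, were named in addition after their values were seen. Intervals are 95% and cover counting error only. Sums, intervals and percentages were computed with pandas 2.3.3, numpy 2.4.6 and scipy 1.17.1 under Python 3.11.15, and figures were drawn with matplotlib 3.10.9.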

Additional observations from a re-analysis of the deposited data

Results flagged for a closer look

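The age difference of Wfdc16 in principal cells differed between cauda and caput by 1.49 (log2, edgeR, adjusted p = 0.0397), with a fitted value of 0.71 in the cauda and −0.77 in the caput. The cauda value was 0.03 with scaling factors of 1, the P56 levels of 1248 and 1483 CPM lay on both sides of the 1335 CPM at P42, and the difference between segments was not called with size factors by relative log expression (1.36) or with factors of 1 (1.14). The difference between basal and principal cells changed from caput to corpus by 1.64 for Wfdc2, −1.66 for Wfdc15b and −3.02 for Wfdc16, and from caput to cauda by 3.99 for Wfdc2, −2.17 for Wfdc15b, −3.18 for Wfdc16 and −1.01 for Wfdc8 (each an interaction test in edgeR). The Wfdc8 change was −0.52 (edgeR, adjusted p = 0.0631) without the P42 pool, and P42 cauda principal cells held Wfdc8 at 152 CPM against 76.5 and 99.7 CPM at P56.

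The difference between clear/narrow and principal cells changed from caput to corpus by −1.18 for Wfdc16, and from caput to cauda by −1.34 for Wfdc13, −1.16 for Wfdc15b, −1.65 for Wfdc16 and 1.17 for Wfdc2. In the comparison of caput and cauda Wfdc2 was at 0.32 (edgeR, adjusted p = 0.681) without P56 replicate 2 and at 0.56 (edgeR, adjusted p = 0.684) with cells thinned to 1000 UMIs. Wfdc15b was at −0.74 (edgeR, adjusted p = 3.66e-06) without the P42 pool and at −0.92 (edgeR, adjusted p = 0.00338) with thinned cells, both under the limit of 1. A change with segment can come from either cell type and from free RNA, whose share in each cell type was given above; their parts were not tested.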

How the results depend on the processing

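With all cells summed without a gate, 3102 and 1546 genes were called between corpus and caput and between cauda and corpus, 2 members between cauda and corpus and 4 between cauda and caput. The same setting called 750, 2238 and 6876 genes and 1, 6 and 9 members between the ages in caput, corpus and cauda, and turned the age difference of Wfdc2 in the corpus to 0.35 and of Wfdc8 in the cauda to 1.65; the libraries differ in their mix of cell types, and most cells of the P42 cauda were not epithelial by the gates. Leaving out each replicate gave 1185 to 2892 genes and 3 to 4 members between cauda and corpus.

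Between the ages, no filter on low counts called 542 genes and 1 member (Wfdc13) in the caput and 664 genes in the corpus, the replicate block 360 and 455 genes, and scaling factors of 1 called 707 and 1150 genes, with 2 members in the caput and 0 in the cauda. Scaling factors of 1 called 857 genes in the cauda. DESeq2 and size factors by relative log expression called 0 members in the cauda, beside 548 and 571 genes. Wfdc15b was at 0.93 in both. Between basal or clear/narrow and principal cells, no replicate block left 1856 and 1601 genes and 3 and 5 members, and cells thinned to 1000 UMIs left 1578 and 1440 genes. Without the block, Wfdc2, Wfdc13, Wfdc15b and Wfdc16 were no longer called in basal cells (edgeR, adjusted p = 0.128, 0.205, 0.0711 and 0.0978); in clear/narrow cells Wfdc13 and Wfdc16 were no longer called and Wfdc15a did not pass the filter on low counts. The replicate block changed no other call of a member.

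Directions turned mostly near 0. Wfdc16 between cauda and corpus was −0.0078 with limits on detected genes only, −0.011 with a stricter gate, −0.0060 to 0.026 with each replicate left out, −0.32 without a gate and −0.10 with factors of 1. With factors of 1 the age differences were −0.12 (Wfdc6a), −0.090 (Wfdc8), −0.012 (Wfdc10) and −0.21 (Wfdc15b) in the caput, −0.41 (Wfdc8), −0.054 (Wfdc13) and −0.011 (Wfdc15a) in the corpus, and −0.027 (Wfdc10), −0.26 (Wfdc13) and −0.27 (Wfdc15a) in the cauda, and Wfdc2 in clear/narrow cells was 0.21. With each P56 replicate left out, the age differences in the cauda were −0.39 to 0.0022 for Wfdc8 and −0.10 to 0.68 for Wfdc13, the value of the other sign coming without P56 replicate 1. Wfdc15b between basal and principal cells of the caput was 0.0094 with DESeq2, 0.0089 with relative log expression, 0.57 with factors of 1, 0.026 with thinned cells and −0.033 to 0.17 with each replicate left out. Within the caput, the basal differences of Wfdc2 (−0.81), Wfdc15a (0.032) and Wfdc16 (1.04), and within the cauda the clear/narrow difference of Wfdc2 (0.62), had the opposite sign to those over all libraries. Scaling factors of 1 moved the median of all genes by −0.06, −0.14 and −0.20 between segments, by −0.34, −0.48 and −0.63 between ages, and by 0.50 and 0.44 in basal and clear/narrow cells. The cause of these changes was not tested.

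Of the other planned settings, 253 values between segments and 159 between cell types kept their direction and their side of the threshold. Between ages 230 values were counted as kept. These include the fits without a P56 replicate, which left 1 library per segment and age. Such fits had no test, so only the direction of their values was compared. Of 81 shares of principal cells with a UMI, 75 moved beyond their interval when cells were thinned. The P42 pool gave 1 library per segment, so age and pool cannot be told apart. Few UMIs limited Wfdc15a in the caput and Wfdc2 in the P42 cauda.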

Other observations

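Slpi, the WAP gene of a leukocyte protease inhibitor that was not called between segments, was higher in basal than in principal cells by 2.46 (log2, edgeR) over all libraries, from 1 to 17 UMIs per library in basal cells. Of the other WAP genes 8 could be tested between these cell types and 5 were called, with Eppin (−1.86), Wfdc11 (−1.76), Wfdc3 (−1.96) and Wfdc6b (−1.90) lower in basal cells; 24.3% of all genes were called in either direction. Caput sperm held Wfdc13 at 394 CPM in P56 replicate 1 (25 cells) and at 165 CPM in P56 replicate 2 (145 cells), beside 127 and 180.3 CPM in the principal cells of these libraries.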
